A study of Mus musculus with 9 samples.

Results

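CD14, the Toll-like receptors and the first proteins of their signalling chain were followed as 10 genes in tumour monocytic myeloid-derived suppressor cells. The members were the genes whose symbol in the deposited FPKM table was Cd14, Ly96, Tlr1, Tlr2, Tlr4, Tlr6, Tlr7, Tlr9, Tlr13 or Myd88. All 10 were found among the table's 54532 genes, and 9 of them, all but Ly96, were also in the deposited table of raw counts of 9877 genes. FPKM here is a level per length, with fragments scaled to transcript length and to a size factor of each library, not its total count. The cells were sorted from tumours of mice bearing MC38 cells, a mouse colon carcinoma line. There were 3 libraries from wild-type mice (WT), 3 from mice labelled LILRB4+/+ (LILRB4 libraries) and 3 from mice labelled LILRB4+/+ SCG2-/- (SCG2 knockout libraries), so that the knockout libraries carried the LILRB4+/+ genotype as well. What the LILRB4+/+ allele is cannot be read from the labels, nor how the sort gate was drawn, how old the mice were or whether libraries came from separate mice. The p-values therefore measure only the spread between these libraries, which may be technical. The title of the series names SCG2, LILRB4, suppression by these cells and the IL-6 and STAT3 pathway.

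Toll-like receptors are membrane proteins that bind conserved parts of microbes and signal through a shared intracellular domain. TLR4 with its partner MD-2, the product of Ly96, binds lipopolysaccharide, and TLR2 pairs with TLR1 or TLR6 to bind bacterial lipopeptides. CD14 is a GPI-anchored surface protein that hands lipopolysaccharide to TLR4 and MD-2 and also serves TLR2, and it is a classical monocyte marker. TLR7, TLR9 and TLR13 sit in endosomes and bind nucleic acids, namely single-stranded RNA, CpG DNA and bacterial ribosomal RNA. MYD88 is the adaptor that all of these receptors use to recruit IRAK kinases, which leads to activation of NF-kB and of inflammatory genes.

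The deposited counts summed to between 14501163 and 27219202 per library. Whole read counts could be recovered from the FPKM table. FPKM times gene length times 1 factor for each library was whole within 0.01 for 100% of values. Tests on counts used the deposited counts, also for genes where the 2 tables differ, unless recovered counts are named. The recovered counts served for genes that the count table lacks and as an alternative for the others. Scg2 had 0 or 1 recovered counts in each of the 9 libraries, so its removal could not be checked at this depth. Lilrb4a, a mouse gene that shares the name of the LILRB4 label, stood between 47.7 and 138 FPKM in WT, 154 and 274 in LILRB4 and 131 and 157 in knockout libraries. All 8 monocyte markers examined were detected, among them Ly6c2, Ccr2 and Csf1r. Summed T and NK cell markers ranged from 114 to 384 FPKM in WT, 106 to 691 in LILRB4 and 388 to 688 in knockout libraries, and B cell markers from 99.6 to 803, 49.2 to 1055 and 336 to 1105. The sum of 14 neutrophil markers ranged from 44.1 to 82.0, 88.3 to 236 and 39.7 to 55.0 FPKM, with Ly6g, Cxcr2, Elane and Mpo under 1 FPKM in every library and Retnlg (154 FPKM), Csf3r (18.0), S100a9 (17.2) and S100a8 (13.9) highest in LILRB4 replicate 2. Mitochondrially encoded mRNA summed to 4918 to 7600, 8577 to 14768 and 3729 to 7676 FPKM. Over all 9 libraries, fibroblast markers summed to 184 to 374 FPKM, dendritic cell markers to 35.9 to 157, carcinoma epithelial markers to 19.1 to 44.7, endothelial markers to 5.20 to 15.9 and mast cell and basophil markers to at most 9.90. In bulk RNA of this kind, fewer cells of a type and less RNA per cell cannot be told apart.

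The 10 genes spanned a wide range of levels per length. Cd14 had a mean of 1694 FPKM over the 9 libraries and ranked 11 of the 54532 genes. Tlr2 followed at 153 FPKM, and no Tlr2 library reached the lowest Cd14 library, the ratio of the means being 11.1. Myd88 came next at 28.2 FPKM, again without overlap with Tlr2. Below Myd88 the order was Tlr13 at 10.1, Tlr4 at 9.38, Tlr7 at 4.96, Ly96 at 3.90, Tlr1 at 3.21, Tlr9 at 2.91 and Tlr6 at 2.52 FPKM, and each neighbouring pair from Myd88 down overlapped over the libraries. In this order CD14 stood far above the receptors it serves, and TLR2 far above TLR1 and TLR6, its partners. The mean of Ly96 was also below that of Tlr4.

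**Figure D1:**
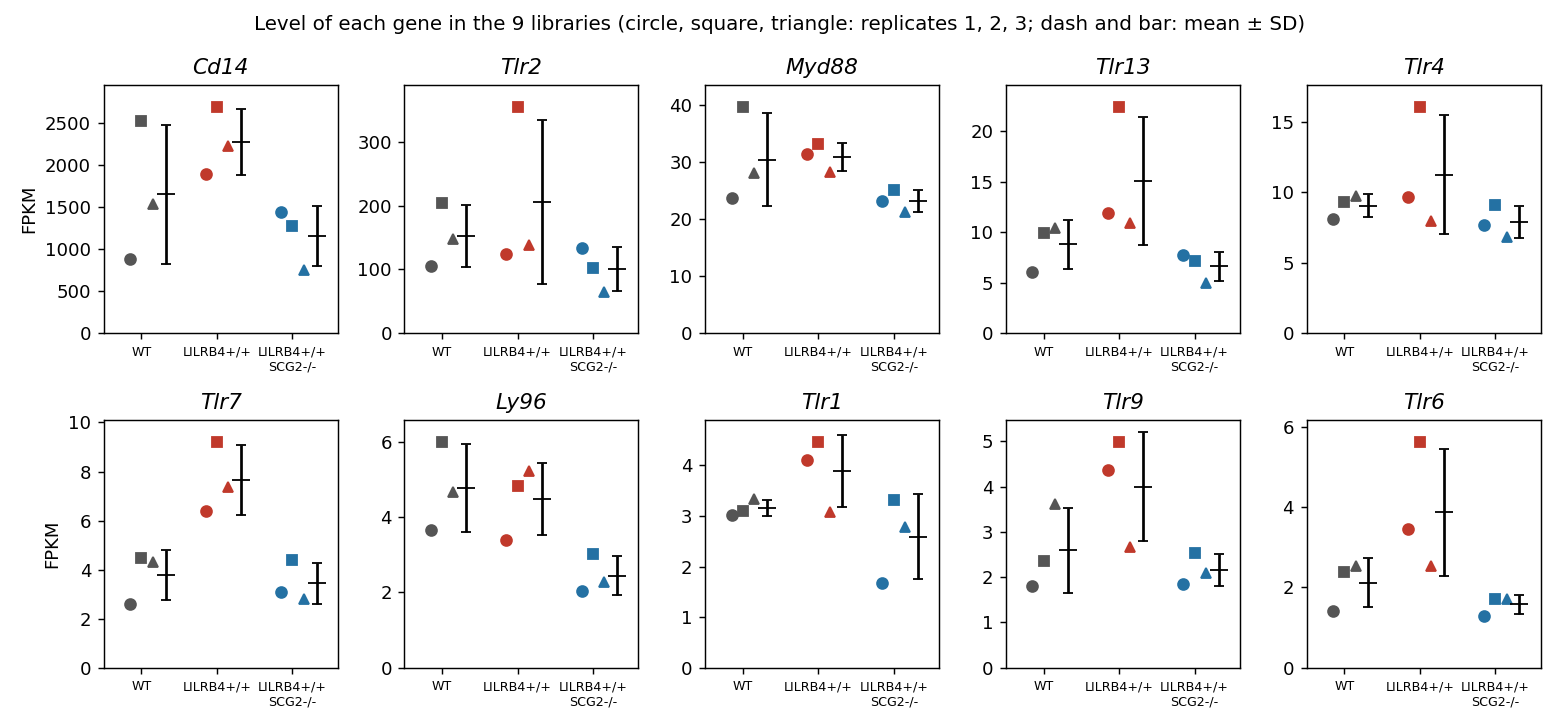
FPKM (linear axis from 0, each gene on its own) of the 10 genes in the 9 libraries, by group, with circle, square and triangle for replicates 1, 2 and 3, and a dash with a bar for the mean ± SD of the 3 libraries. Cd14 sits between 756 and 2688 FPKM and Tlr6 between 1.29 and 5.62, and LILRB4 replicate 2 is the highest point in 8 of the 10 panels.

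The plot of levels by library shows that single libraries set much of the spread. LILRB4 replicate 2 was the highest library for 8 of the 10 genes, and WT replicate 2 for Ly96 and Myd88. The lowest library was SCG2 knockout replicate 3 for 5 genes, SCG2 knockout replicate 1 for 3 and WT replicate 1 for 2. The highest library exceeded the lowest 5.46-fold for Tlr2, 4.48-fold for Tlr13 and 4.35-fold for Tlr6, and 1.87-fold for Myd88, the narrowest of the 10. LILRB4 replicate 2 and WT replicate 2 were also, with WT replicate 3, the libraries with the lowest summed T, NK and B cell markers. LILRB4 replicate 2 also had the highest neutrophil marker sum, 236 FPKM, and the highest mitochondrially encoded mRNA. The part of other cells and of RNA quality in these levels was not tested.

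Cd14 (ENSMUSG00000051439, chromosome 18, 36725074 to 36726736, minus strand) is a protein-coding gene whose ends in the files differ from those of the GRCm38 annotation GENCODE M21. Its levels were 886, 2528 and 1541 FPKM in WT replicates 1 to 3. They were 1900, 2688 and 2234 FPKM in the LILRB4 libraries. They were 1443, 1272 and 756 FPKM in the SCG2 knockout libraries. All 3 knockout libraries lay below all 3 LILRB4 libraries, while WT, with means of 1651 ± 826 FPKM against 2274 ± 396 and 1157 ± 358 (SD, n = 3 each), overlapped both.

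The count table and the FPKM table gave the same Cd14 count in 8 libraries and not in the ninth. In LILRB4 replicate 1 the count table holds 99098 reads, and the FPKM value corresponds to 49098, exactly 50000 fewer and a ratio of 2.02. Over both tables, 56 of 88893 values in 47 genes were unequal, and Cd14 was the only one of the 9 genes of the receptor set in the count table among them. With the count table, Cd14 stood at 2773 ± 1251 CPM (counts scaled to the library's total) in the WT group, 4432 ± 1210 in LILRB4 and 1923 ± 517 in knockout libraries (SD, n = 3 each). With the recovered counts it stood at 2688 ± 1214, 3376 ± 596 and 1860 ± 500 CPM. In CPM, LILRB4 replicate 1 was thus the highest LILRB4 library for Cd14 by the count table and the lowest by the recovered counts. Which of the 2 values was counted could not be told from the files.

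**Figure D2:**
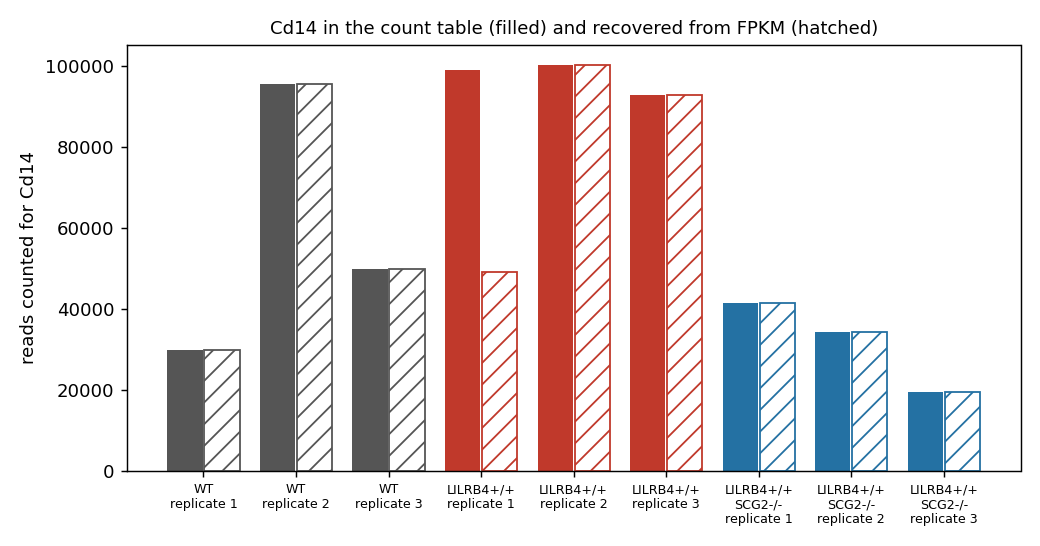
Reads counted for Cd14 in each of the 9 libraries (bars from 0), with filled bars for the deposited count table and hatched bars for the counts recovered from FPKM, and no error since each bar is 1 library. The bars are equal in 8 libraries, and in LILRB4 replicate 1 they stand at 99098 and 49098 reads.

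The bars of reads by library show the 2 tables side by side, and the choice of table changed the size of the Cd14 difference. The LILRB4 to WT ratio of mean CPM was 1.60 with the count table and 1.26 with the recovered counts, and the SCG2 knockout to LILRB4 ratio 0.434 and 0.551. The SCG2 knockout to WT ratio, which does not involve that library, was 0.693 and 0.692. By edgeR's quasi-likelihood test on the deposited counts, the log2 difference of Cd14 between LILRB4 and WT was 0.80 (SE 0.37, adjusted p = 0.228), and on the recovered counts of all genes 0.45 (SE 0.35, adjusted p = 0.503). Between SCG2 knockout and LILRB4 it was -1.28 (SE 0.37, adjusted p = 0.304) and -0.95 (SE 0.36, adjusted p = 0.497). Neither table gave a call for Cd14 with edgeR. DESeq2 called the SCG2 knockout to LILRB4 difference with the deposited counts (log2 -1.31, adjusted p = 0.0153) and not with the recovered counts of all genes (log2 -0.98, adjusted p = 0.151).

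Ly96 and Tlr4 encode the complex to which CD14 delivers lipopolysaccharide. Ly96 (ENSMUSG00000025779, chromosome 1, 16688051 to 16709611) stood at 3.65, 5.99 and 4.66 FPKM in WT, 3.40, 4.83 and 5.22 in LILRB4 and 2.04, 3.03 and 2.27 in knockout libraries. By FPKM it was the only one of the 10 genes whose knockout libraries lay below every WT library as well as every LILRB4 library; in CPM this also held for Myd88. By limma on log2(FPKM + 1) its difference was -0.07 between LILRB4 and WT (SE 0.20, adjusted p = 0.891), -0.67 between SCG2 knockout and LILRB4 (SE 0.20, adjusted p = 0.471) and -0.73 between SCG2 knockout and WT (SE 0.20, adjusted p = 0.427). On this scale of log2(value + 1) the differences of low genes are understated, and edgeR on the recovered counts gave -0.86 and -0.95 for the last 2 (adjusted p = 0.483 and 0.344).

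Tlr4 (ENSMUSG00000039005, chromosome 4, 66827584 to 66930284) stood at 8.12, 9.27 and 9.74 FPKM in WT, 9.69, 16.0 and 7.99 in LILRB4 and 7.69, 9.08 and 6.83 in knockout libraries. The 3 groups overlapped, and LILRB4 replicate 2 alone stood apart. By edgeR the log2 difference was 0.28 between LILRB4 and WT (SE 0.22, adjusted p = 0.466) and -0.45 between SCG2 knockout and LILRB4 (SE 0.22, adjusted p = 0.473). Without LILRB4 replicate 2 they were -0.05 and -0.13, so the sign of the first turned with that library.

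Tlr2 (ENSMUSG00000027995, chromosome 3, 83836272 to 83841767) was the most abundant receptor. It stood at 106, 204 and 148 FPKM in WT, 124, 354 and 138 in LILRB4 and 134, 102 and 64.8 in knockout libraries. Its groups overlapped in every pair, and LILRB4 replicate 2 was again far above the rest. By edgeR the log2 difference was 0.39 between LILRB4 and WT (SE 0.41, adjusted p = 0.598) and -0.97 between SCG2 knockout and LILRB4 (SE 0.42, adjusted p = 0.432). Without LILRB4 replicate 2 these were -0.23 and -0.35.

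Tlr1 and Tlr6, which neighbour each other on chromosome 5, encode the partners of TLR2. Tlr1 (ENSMUSG00000044827, 64924679 to 64933563) stood at 3.02, 3.11 and 3.34 FPKM in WT, 4.11, 4.46 and 3.08 in LILRB4 and 1.67, 3.32 and 2.79 in knockout libraries. Its groups overlapped, with log2 differences by edgeR of 0.26 (SE 0.25, adjusted p = 0.543) for LILRB4 against WT and -0.52 (SE 0.25, adjusted p = 0.463) for SCG2 knockout against LILRB4. Tlr6 (ENSMUSG00000051498, 64952031 to 64960097) stood at 1.41, 2.39 and 2.54 FPKM in WT, 3.46, 5.62 and 2.52 in LILRB4 and 1.29, 1.72 and 1.72 in knockout libraries. The knockout libraries of Tlr6 lay below all LILRB4 libraries, and LILRB4 replicate 3 lay within WT. The log2 differences by edgeR were 0.84 (SE 0.31, adjusted p = 0.145) and -1.23 (SE 0.31, adjusted p = 0.257) for the same comparisons. The second was, beside that of Cd14, the widest among the 9 genes tested on counts.

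The promoters of Tlr2 and Tlr6 are shown because the first belongs to the most abundant receptor and the other to the receptor with the widest knockout difference. RefSeq windows of 250 bases before to 50 bases after the start (GRCm38.p6, minus strand, 5′ to 3′) were available for 6 of the 10 genes, with 2 start sites each for Tlr1 and Tlr6. Capitals mark letters matching a motif on either strand, from searches for NF-kB (GGGA-NNNN-CC, N being any base), PU.1 (GAGGAA), AP-1 (TGANTCA), STAT (TTC-NNN-GAA) and the interferon element ISRE (GAAA-NN-GAAA).
Tlr2, chr3:83841559-83841858: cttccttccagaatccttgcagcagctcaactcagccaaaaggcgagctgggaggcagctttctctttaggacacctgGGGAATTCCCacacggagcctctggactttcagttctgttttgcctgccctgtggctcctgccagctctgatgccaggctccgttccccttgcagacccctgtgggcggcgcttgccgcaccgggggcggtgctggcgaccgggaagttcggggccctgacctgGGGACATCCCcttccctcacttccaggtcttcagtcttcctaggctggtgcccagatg
Tlr6 start site 1, chr5:64959117-64959416: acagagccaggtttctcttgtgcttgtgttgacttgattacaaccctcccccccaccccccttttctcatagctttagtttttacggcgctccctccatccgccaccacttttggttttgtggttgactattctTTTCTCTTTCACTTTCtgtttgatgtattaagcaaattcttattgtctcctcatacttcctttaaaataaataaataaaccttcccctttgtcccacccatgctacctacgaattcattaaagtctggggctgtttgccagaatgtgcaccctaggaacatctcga
Tlr6 start site 2, chr5:64959999-64960298: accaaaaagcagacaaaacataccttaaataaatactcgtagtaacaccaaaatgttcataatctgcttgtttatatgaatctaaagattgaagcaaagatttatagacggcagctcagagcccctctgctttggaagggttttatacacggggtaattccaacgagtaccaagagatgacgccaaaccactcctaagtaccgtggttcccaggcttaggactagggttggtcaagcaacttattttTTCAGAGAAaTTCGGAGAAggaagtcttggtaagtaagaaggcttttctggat
The Tlr2 window held 2 NF-kB matches, GGGAATTCCC and GGGACATCCC, both of which read as matches on both strands. Of all 32851 promoter windows, 20.7% held at least 1 NF-kB match. Start site 1 of Tlr6 held 2 overlapping ISRE matches on the reverse strand, in letters that 3.4% of all windows held. Start site 2 of Tlr6 held the STAT letters TTCAGAGAA and TTCGGAGAA around the start, and 8.3% of all windows held a STAT match. ISRE and STAT matches were not confined to Tlr6, since the Myd88 window held an ISRE match and a STAT match. Start site 1 of Tlr1 held a PU.1 match, and start site 2 of Tlr1 a STAT match. These are matches of letters and not sites measured in these cells.

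Among the endosomal receptors, Tlr7 (ENSMUSG00000044583, chromosome X, 167304929 to 167330558) stood at 2.62, 4.46 and 4.30 FPKM in WT, 6.41, 9.19 and 7.36 in LILRB4 and 3.10, 4.39 and 2.82 in knockout libraries. All LILRB4 libraries lay above all WT and all knockout libraries, and WT and knockout libraries overlapped. The ratio of mean FPKM was 2.02 for LILRB4 over WT and 0.449 for SCG2 knockout over LILRB4. By edgeR the log2 difference was 0.99 between LILRB4 and WT (SE 0.23, adjusted p = 0.0542) and -1.10 between SCG2 knockout and LILRB4 (SE 0.24, adjusted p = 0.235). DESeq2 called both, at 1.01 (adjusted p = 0.00485) and -1.13 (adjusted p = 0.00549). Without LILRB4 replicate 2, the edgeR values were 0.85 and -0.97, so Tlr7 kept its direction in both comparisons. Tlr2 and Tlr4 kept theirs in SCG2 knockout against LILRB4 alone.

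Tlr13 (ENSMUSG00000033777, chromosome X, 106143204 to 106160493) stood at 6.02, 9.86 and 10.4 FPKM in WT, 11.8, 22.3 and 10.9 in LILRB4 and 7.70, 7.11 and 4.98 in knockout libraries. As with Tlr7, the LILRB4 libraries lay above both other groups, though LILRB4 replicate 3 exceeded the highest WT library only narrowly. In CPM, from either set of counts, the LILRB4 and WT libraries overlapped. The log2 difference by edgeR was 0.74 for LILRB4 against WT (SE 0.29, adjusted p = 0.166) and -1.12 for SCG2 knockout against LILRB4 (SE 0.29, adjusted p = 0.257). Without LILRB4 replicate 2 they were 0.37 and -0.75. DESeq2 called the second on the full set (log2 -1.16, adjusted p = 0.0177) and not the first.

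Tlr9 (ENSMUSG00000045322, chromosome 9, 106222598 to 106226883) stood at 1.80, 2.35 and 3.62 FPKM in WT, 4.36, 4.98 and 2.66 in LILRB4 and 1.84, 2.53 and 2.08 in knockout libraries. The LILRB4 libraries lay above the knockout libraries by a narrow margin at replicate 3, a separation that was lost in CPM, and overlapped WT. Its log2 differences by edgeR were 0.60 (SE 0.29, adjusted p = 0.248) and -0.83 (SE 0.29, adjusted p = 0.360). Both Tlr9 and Tlr7 are also expressed by B cells and plasmacytoid dendritic cells. The summed plasmacytoid dendritic cell markers ranged from 146 to 198 FPKM in WT, 121 to 169 in LILRB4 and 111 to 156 in the knockout group. Gene by gene, 4 of the 5 markers tested by edgeR were above 0 in LILRB4 against WT, with a median log2 difference of 1.49. For SCG2 knockout, 0 of 5 were above 0 against LILRB4 (median -0.20) and 4 of 5 against WT (median 1.03). None of the 5 was called, and the part of those cells was not tested.

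The promoter window of Tlr13 is shown because it is the endosomal receptor with an available window and the widest knockout difference (RefSeq, GRCm38.p6, plus strand, capitals marking the motif match).
Tlr13, chrX:106143025-106143324: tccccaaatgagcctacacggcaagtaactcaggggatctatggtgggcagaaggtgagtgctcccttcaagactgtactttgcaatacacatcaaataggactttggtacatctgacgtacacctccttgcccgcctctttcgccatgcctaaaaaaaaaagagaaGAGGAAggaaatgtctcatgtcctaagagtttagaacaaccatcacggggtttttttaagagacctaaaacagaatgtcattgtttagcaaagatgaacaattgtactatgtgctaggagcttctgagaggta
It held 1 match of the PU.1 letters GAGGAA, which 28.3% of all windows held, and none of the other 4 motifs. The Tlr9 window held 2 PU.1 matches and 1 AP-1 match, the latter present in 7.8% of all windows.

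Myd88 (ENSMUSG00000032508, chromosome 9, 119335934 to 119341411) stood at 23.7, 39.6 and 28.1 FPKM in WT, 31.4, 33.2 and 28.3 in LILRB4 and 23.2, 25.2 and 21.2 in knockout libraries. By FPKM the knockout libraries lay below all LILRB4 libraries and overlapped WT, and in CPM, from either set of counts, they lay below both. The log2 difference by edgeR was -0.01 for LILRB4 against WT (SE 0.17, adjusted p = 0.988), -0.36 for SCG2 knockout against LILRB4 (SE 0.18, adjusted p = 0.473) and -0.36 for SCG2 knockout against WT. Myd88 overlaps Acaa1a on the opposite strand, which had 1020 to 2032 recovered counts per library. The strand setting of the counting is not given in the sources used here, so reads of the 2 genes may not be separated and the Myd88 values are uncertain.

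Across the 10 genes, no comparison gave a call at an adjusted p of 0.05 by edgeR on deposited counts (9 genes), edgeR on recovered counts (10 genes) or limma on log2(FPKM + 1) (10 genes). Of all 9877 genes, edgeR called 2.25% between LILRB4 and WT (171 higher and 51 lower, or 136 and 128 with upper-quartile scaling), 0.0% between SCG2 knockout and LILRB4 and 0.0% between SCG2 knockout and WT. On the recovered counts edgeR called 0.87% of genes in the first comparison and 0.0% in the others, and limma 0.101% and 0.0%. At an unadjusted p under 0.05, Tlr7, Tlr6 and Tlr13 were higher in LILRB4 than WT, against 11.3% of all genes. In SCG2 knockout against LILRB4, 6 of 9 were lower at that level (Cd14, Tlr2, Tlr13, Tlr7, Tlr9 and Tlr6), against 6.18% of all genes. Between SCG2 knockout and WT it was 0 of 9, against 6.11% lower and 8.47% higher. DESeq2 called 1 gene, Tlr7, as higher in LILRB4 than WT, where 6.2% of all genes were called higher. It called 4 as lower in SCG2 knockout than LILRB4, namely Cd14, Tlr13, Tlr7 and Tlr6, where 1.64% of all genes were called lower. With the recovered counts it called Tlr7 in the first comparison (4.66% of genes higher) and 3 in the second, all but Cd14 (0.999% lower). It called 0 of them between SCG2 knockout and WT, where 0.932% of all genes were called.

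By FPKM, 2 of 10 genes, Tlr7 and Tlr13, had LILRB4 libraries wholly above WT, where 9.93% of 18904 genes did. Knockout libraries lay wholly below LILRB4 for 7 of 10 (Cd14, Tlr6, Tlr7, Tlr9, Tlr13, Ly96 and Myd88), where 7.93% of genes did, and wholly below WT for Ly96 alone, where 9.25% did. In CPM the separation of Tlr13 in the first comparison and of Tlr9 in the second was lost, and Myd88 joined Ly96 in the third. On deposited counts, the median log2 difference by edgeR over the 9 genes was 0.60 for LILRB4 against WT, beside -0.02 over all genes. For SCG2 knockout against LILRB4 it was -0.97, with 9 of 9 below 0, beside 0.03 over all genes. For SCG2 knockout against WT it was -0.36 with 9 of 9 below 0, beside 0.00. With the recovered counts of the same genes, the medians of the first 2 comparisons were 0.46 and -0.95. The individual values against WT ran from -0.11 for Tlr7 to -0.58 for Tlr2, with adjusted p from 0.355 to 0.833 by edgeR. The first 2 comparisons share the LILRB4 libraries, so a high value there enters both with opposite signs. The plot of differences with standard errors gives each gene from both sets of counts.

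**Figure D3:**
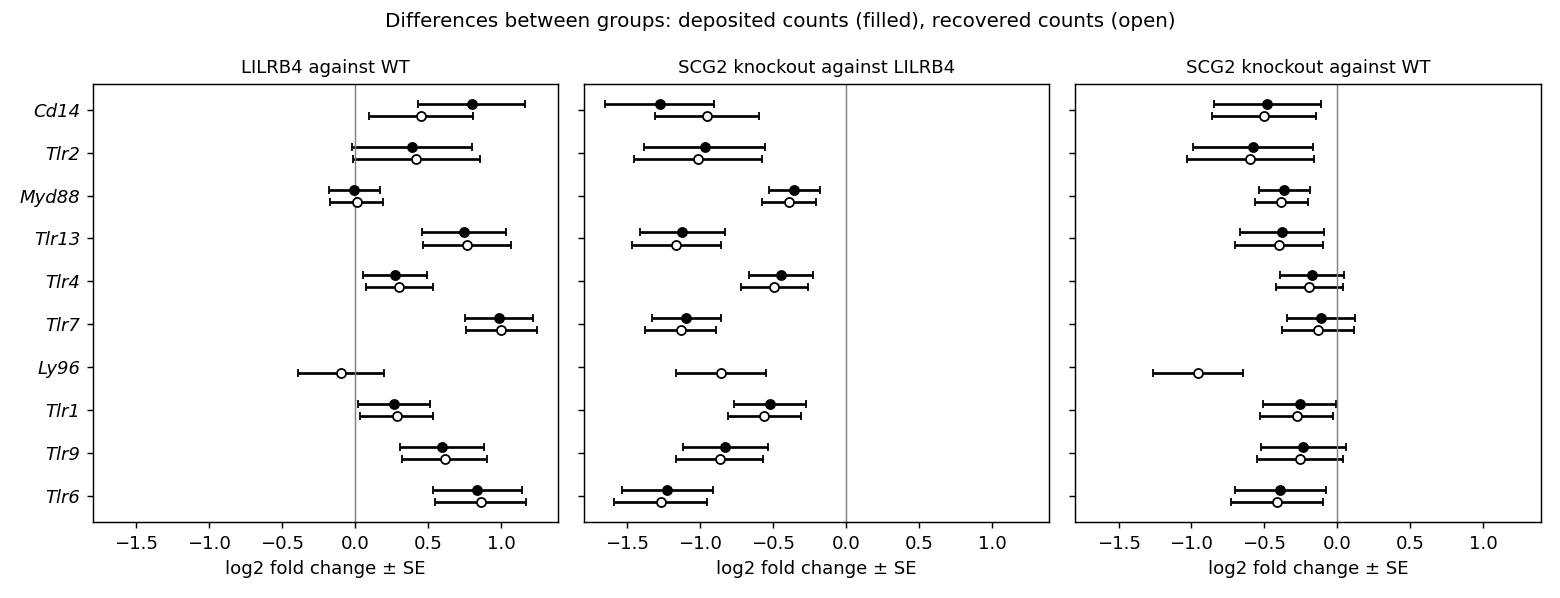
Log2 fold change with its standard error (horizontal axis) of each gene in the 3 comparisons by edgeR, with filled points for deposited counts and open points for recovered counts, Ly96 having the open point alone. The filled points for SCG2 knockout against LILRB4 all lie below 0, from -0.36 for Myd88 to -1.28 for Cd14.

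Monocyte markers varied in the same libraries, as the plot of Cd14 beside marker sums shows. The summed FPKM of the 8 markers (Chil3, F10, Csf1r, Ly6c2, Itgam, Ccr2, Vcan and Cx3cr1) ranged from 388 to 686 in WT, 458 to 854 in LILRB4 and 248 to 495 in knockout libraries. None of the 8 passed edgeR's test, and their median log2 difference was 0.15 for LILRB4 against WT and -0.68 for SCG2 knockout against LILRB4. Summed macrophage markers ranged from 698 to 1154, 651 to 1265 and 443 to 794 FPKM. Both sums thus had their lowest ranges in the knockout group, where the mean FPKM of all 10 genes was also lowest. The summed neutrophil markers and mitochondrially encoded mRNA were wholly higher in LILRB4 than in both other groups. Their median log2 differences by edgeR were 1.23 and 0.72 for LILRB4 against WT, and -1.09 and -0.89 for SCG2 knockout against LILRB4, the latter close in size to the -0.97 of the receptor set. By edgeR 2 of the 6 neutrophil markers tested were called higher in the first comparison and 0 of the 10 mitochondrial genes, against 1.73% of all genes. With the recovered counts of all genes, 1 of 9 neutrophil markers was called, against 0.813% of all genes. By limma 0 of 11 were. In SCG2 knockout against LILRB4, T and NK cell markers and fibroblast markers went the other way by edgeR. There 11 of 13 and 7 of 7 were above 0, with median log2 differences of 0.39 and 0.46. In LILRB4 against WT their medians were 0.965 and -0.28. The part of any of these lists in the receptor values was not tested.

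Dividing each library's FPKM by its monocyte marker sum, a ratio added after the data were seen, left fewer genes apart. Cd14 stood at 2.28, 3.69 and 3.30 times that sum in WT, 4.15, 3.15 and 4.30 in LILRB4 and 2.91, 3.67 and 3.05 in knockout libraries, and the groups overlapped. On this scale the knockout libraries lay wholly below LILRB4 for Tlr13 alone, where 0.555% of all genes did and 26.4% lay wholly above, and LILRB4 wholly above WT for Tlr7 alone, where 1.92% did. The knockout to LILRB4 ratio was 0.764 for Tlr6, 0.769 for Tlr13, 0.779 for Tlr7, 0.830 for Cd14 and 0.868 for Tlr2. It was 0.950 for Tlr9, 0.952 for Ly96, 1.20 for Tlr1, 1.25 for Tlr4 and 1.27 for Myd88. Division by a sum that was itself lowest in the knockout group raises every gene's ratio there, so these values are a description.

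**Figure D4:**
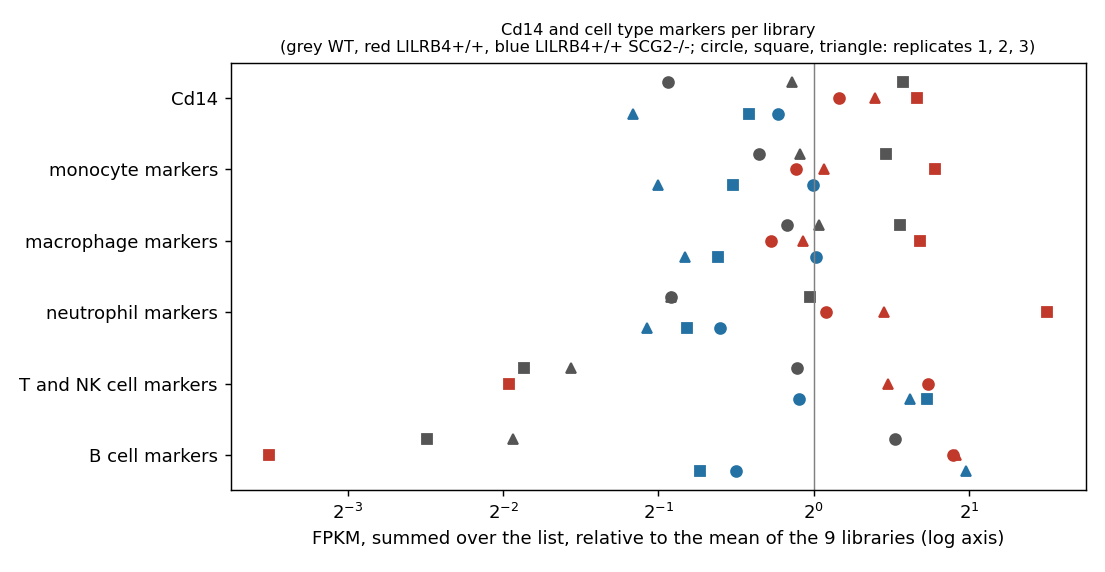
Cd14 FPKM and the summed FPKM of 5 lists of cell type markers in each library, divided by the mean of the 9 libraries (log axis), with colour for the group and circle, square and triangle for replicates 1, 2 and 3. The knockout libraries lie to the left of all LILRB4 libraries for Cd14, and overlap them for the monocyte markers (248 to 495 against 458 to 854 FPKM) and the T and NK cell markers.

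The genes whose log2(FPKM + 1) ran most like that of Cd14 over the 9 libraries, among 12424 genes with a mean of at least 1 FPKM, were Ninj1 (Pearson r 0.986), Slc31a2 (0.985), Rtf2 (0.981), Plaur (0.980) and Capza2 (0.980). The points share their libraries and their depth, and the values are a description. None of the other 9 genes of the receptor set was among these 5. Their r with Cd14 ran from 0.401 for Tlr1 to 0.876 for Myd88, which ranked 213. Pairs within the set reached 0.932 (Tlr6 and Tlr9), so counts over the set are not counts of independent genes.

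The rest of the pathway was followed by role, in lists shown together in the plot of genes by role. Of the other Toll-like receptors, Tlr8 had a mean of 2.94 FPKM and Tlr3 of 1.14, Tlr5 of 0.515, and Tlr11 and Tlr12 were under 1 FPKM in every library. Tlr8, the only one tested by edgeR on deposited counts, was not called, and limma tested 4 of the 5 and called 0. Of 13 accessory and trafficking genes, such as the endosomal protease Ctss and the chaperone Hsp90b1 that folds the receptors, 0 were called in LILRB4 against WT by edgeR, with a median log2 difference of 0.01. Of 4 further adaptors tested, 1 rose in LILRB4 against WT, Pik3ap1, which encodes BCAP, by 1.22 on the log2 scale (SE 0.19, adjusted p = 0.0214 by edgeR). Its FPKM was 26.8 ± 4.42 in WT, 63.5 ± 9.46 in LILRB4 and 34.1 ± 8.25 in knockout libraries (SD, n = 3 each). Its difference from LILRB4 to SCG2 knockout was -0.84 (adjusted p = 0.235 by edgeR).

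Downstream of the receptors, 4 of 16 kinases and ubiquitin ligases rose in LILRB4 against WT by edgeR, where 1.73% of all genes did. These were Tbk1, which phosphorylates IRF3 (log2 0.81), Irak2, a kinase of the MYD88 complex (0.78), Traf6, its ubiquitin ligase (0.70), and Peli1, an IRAK-binding ligase (1.11), with adjusted p from 0.0214 to 0.0473. Of 10 transcription factors 2 rose, the NF-kB subunits Nfkb1 (1.17) and Rel (0.91). Of 14 genes listed here as inhibitors, a label that need not cover their whole role, 3 rose. These were Nfkbiz (0.95), the ribonuclease gene Zc3h12a (0.91) and Irak3 (0.99). Of 19 response genes tested 10 rose, with a median log2 difference of 1.55, and the 8 with the smallest p are named. They were the growth factor gene Csf3 (2.87), the interleukin genes Il12a (2.09), Il23a (2.03), Il1a (1.99) and Il6 (1.56), the chemokine gene Cxcl2 (1.76), Tnf (1.55) and the prostaglandin synthase gene Ptgs2 (376 ± 54.8 FPKM in WT and 1081 ± 154 in LILRB4, SD, n = 3 each). Il6 and Tnf differ between the deposited tables, with 1.78 and 1.41 from the recovered counts. The neutrophil marker sums given above were also higher in LILRB4 than in both other groups, and their part in these differences was not tested. None of these genes fell, and 0 of any list were called between SCG2 knockout and LILRB4, where 0 genes were called in all.

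These list calls depended on single libraries, as did the calls over all genes. On the recovered counts edgeR called 0.813% of all genes as higher in that comparison, and of the lists 1 adaptor, 2 kinases or ligases, 0 transcription factors, 2 inhibitors and 9 of 20 response genes. By limma 1 kinase gene, Tbk1 (adjusted p = 0.0478), was called, with 0 genes in every other list. With the replicate block, edgeR called 0 in every list and 1 of all genes as higher. Leaving out any 1 WT library, LILRB4 replicate 1 or LILRB4 replicate 3 left 0 called in every list. Of all 9877 genes, 27, 0 and 0 were called higher without WT replicates 1, 2 and 3. Without LILRB4 replicates 1 and 3 those counts were 8 and 14. Leaving out LILRB4 replicate 2 gave 1, 6, 4, 8 and 16 in the order of the lists above, with 541 of all genes higher. Without knockout replicate 2, whose spread enters the fit, the list counts were 1, 1, 0, 0 and 7, with 57 of all genes higher. Without knockout replicate 1 or 3 the called transcription factors numbered 1, with 158 and 162 of all genes higher.

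**Figure D5:**
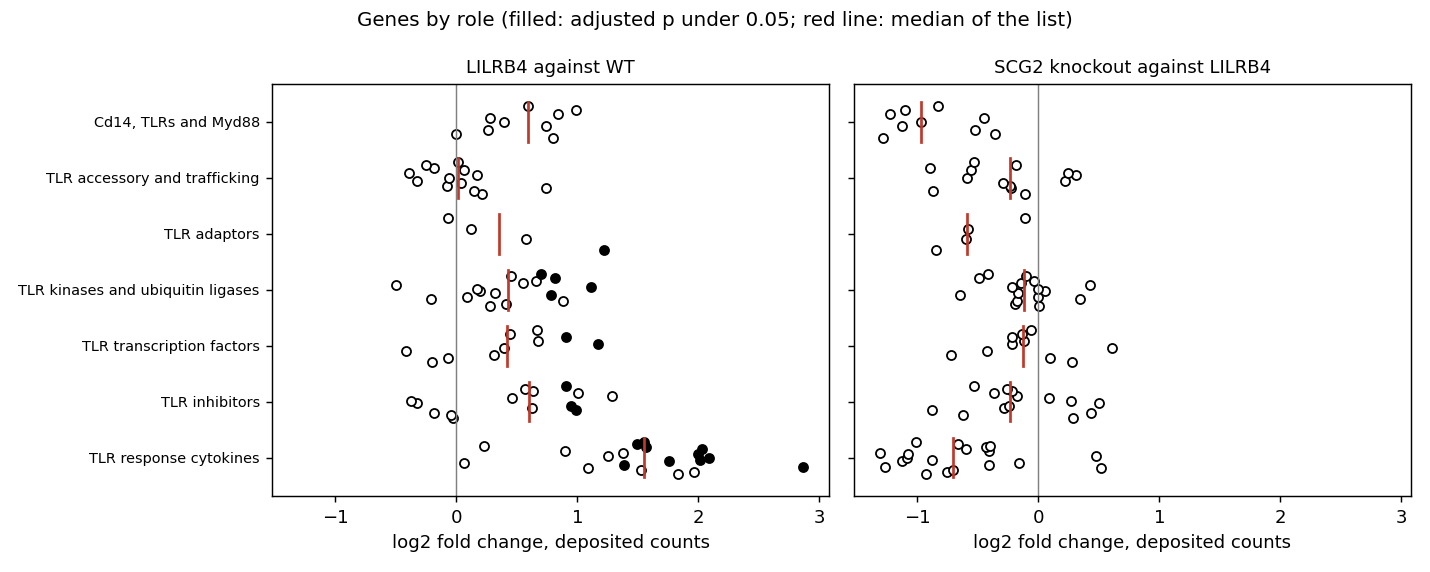
Log2 fold change by edgeR on deposited counts (horizontal axis) of the genes of the receptor set and of 6 pathway lists, 1 point a gene, in LILRB4 against WT and in SCG2 knockout against LILRB4, filled at an adjusted p under 0.05, with a red line at the list's median. The response genes have medians of 1.55 and -0.70, the accessory genes of 0.01 and -0.23, and filled points appear in the first comparison only.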

How the data were processed

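Poly-A RNA of sorted cells was sequenced as strand-specific libraries, per the labels' protocols. The authors aligned with HISAT2 2.0.5 and counted with featureCounts 1.5.0-p3, tools that the submitters' processing notes name. The genome build, annotation and strand setting of the counting: not given in the sources used here. The deposited tables hold raw counts and FPKM, and the FPKM denominators followed the libraries' size factors within 2.93e-09%. edgeR 4.0.16 (TMM, filterByExpr with a minimum count of 10, robust quasi-likelihood fit) was run on the deposited counts of all genes in the 9 libraries, with Benjamini-Hochberg adjustment and a threshold of 0.05. limma 3.58.1 was run on log2(FPKM + 1) of genes with a mean of at least 0.1 FPKM. DESeq2 1.42.0, recovered counts, other filters and scalings, a replicate block and leaving out each library were alternatives. The scripts were tested on simulated data. The members and gene lists were chosen with earlier results of these data known. All 10 members are named, and list genes are named if called by edgeR, up to 8 per list by smallest p, otherwise the 2 most abundant. A monocyte marker of the planned list is not reported here and was left out of the sums. Other lists examined were dendritic, plasmacytoid dendritic, endothelial, carcinoma and mast cell markers and mitochondrially encoded mRNA.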

Additional observations from a re-analysis of the deposited data

How the results depend on the processing

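With 3 libraries a group, the alternatives moved values more than calls. Of 891 values of single genes under an alternative, 855 kept their direction and side of the threshold, 13 passed it (all by DESeq2) and 23 changed sign. No gene of the receptor set was called under any edgeR or limma setting run. DESeq2 called 1 in LILRB4 against WT and 4 in SCG2 knockout against LILRB4, or 1 and 3 with recovered counts. In LILRB4 against WT, leaving out each library in turn gave Tlr2 from -0.225 (without LILRB4 replicate 2) to 0.684, Tlr4 from -0.047 (likewise) to 0.491 and Myd88 from -0.144 to 0.240 (without WT replicate 2). On log2(FPKM + 1) these were -0.168 to 0.583 for Tlr2, -0.032 to 0.429 for Tlr4, -0.215 to 0.081 for Ly96 and -0.108 to 0.251 for Myd88. In SCG2 knockout against WT, Tlr7 ran from -0.315 to 0.008 and Tlr9 from -0.425 to 0.072, or -0.294 to 0.003 and -0.326 to 0.036 by FPKM. With the other settings, Myd88 in LILRB4 against WT was 0.016 with DESeq2, 0.025 and 0.017 with DESeq2 on recovered counts of all and of the same genes, 0.014 with only the 2 groups, and 0.010 and 0.014 with recovered counts of all and of the same genes in edgeR. The cause of these changes was not tested.

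Deviations of same-numbered libraries from their group means correlated between -0.54 and 0.66, and those of other pairs between -0.71 and 0.52. Whether equal numbers stand for shared handling cannot be told from these values. With the replicate block, 0 of the receptor genes were called, Myd88 stood at 0.016 in LILRB4 against WT, and of all genes there 1 was higher and 0 lower, against 171 and 51. Those counts were 69 and 3 with only the 2 groups, 128 and 9 with recovered counts, 612 and 312 with DESeq2, and 19 and 0 with limma, or 42 and 1 at a pseudocount of 0.1. They ran from 0 and 0 (without WT replicate 2 or 3) to 541 and 148 (without LILRB4 replicate 2). With recovered counts, Cd14 in LILRB4 against WT ranged from 0.15 without WT replicate 1 to 0.90 without WT replicate 2.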
